A study of Mus musculus with 4 samples.

Results

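Tendons join muscle to bone, and 8 mouse genes with a known place in the embryonic tendon are described here between hindlimb and forelimb. They were chosen by name for their known roles, and the choice rule uses no measured value. Earlier results of these data were known when the choice was made. Scx, Mkx, Six2 and Egr2 encode transcription factors and are called regulators. Tnmd, Thbs4, Chodl and Htra3 encode membrane or secreted proteins and are called markers. All 8 were found among the 26252 genes and clusters that had a tag, and all 8 passed the filter on low counts that left 13718 for testing. The libraries came from dissected whole limbs of CD1 embryos at E14.5, with 2 biological replicates of hindlimb and 2 of forelimb. No genotype, agent, batch or date is given in the labels. Pooling of embryos is not stated either, nor whether libraries that share a number share animals.

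Tendon progenitors of the limb arise in lateral plate mesoderm, between the muscle masses and the cartilage, and TGF-beta and FGF signals maintain or induce them. Scx, a basic helix-loop-helix factor, marks these progenitors from early on, and Mkx, a homeobox factor, and the zinc finger factors Egr1 and Egr2 act in later tendon differentiation and collagen production. Tnmd, a membrane glycoprotein whose expression in mouse tendon depends on Scx, is the usual marker of differentiating tendon cells. In a whole limb tendon cells are a small part of the tissue, so fewer tendon cells and less RNA per cell cannot be told apart in these bulk libraries.

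The measurement is a tag count. In DGE-SAGE (digital gene expression by serial analysis of gene expression) NlaIII cuts the cDNA at CATG. The 17 bases after a cut are sequenced and counted as a tag. A gene can have tags at several of its CATG sites, and its count here is the sum over its tags. These sites did not count alike. In every gene but Mkx, most counts were in tags at the last site, nearest the 3′ end, of an annotated transcript. Scx tag 2, Thbs4 tag 3 and Htra3 tag 3 lie upstream of it, and each held a small part of its gene's counts. The tags shown next are those on which the results turn, numbered within a gene from the highest total count. They read 5′ to 3′ on the strand of the gene, with the NlaIII site in capitals where site and tag both match the reference exactly.
Scx tag 1: CATGctggctctctacctggg
Scx tag 2: CATGccactcgggacccgctt
Six2 tag 1: CATGtgaatgttcgtcgggag
Six2 tag 2: tctgccaaccttgtgga
Tnmd tag 1: CATGttctaataaacttctac
Thbs4 tag 1: CATGgcttttcttttaccagc
Thbs4 tag 3: CATGtggaagcaaacggagca
Htra3 tag 1: CATGcagttctgggtgcggca
Htra3 tag 2: gtctccaaccctgacag
Htra3 tag 3: CATGtgaggctactctcatcc
The sequences were matched to GENCODE M21 transcripts on GRCm38, a later build than the mm9 of the submitters, and all positions are on GRCm38. Scx tag 1 lies in the 3′ UTR at chr15:76459355-76459375 (plus strand), at the NlaIII site nearest the 3′ end of 6 in the transcript. Scx tag 2 lies in the coding sequence at the next site, chr15:76458035-76458055. Tnmd tag 1 lies in the 3′ UTR at chrX:133865546-133865566 (plus strand), again at the last site. Htra3 tag 1 (chr5:35652211-35652231, minus strand) is in the 3′ UTR at the last site, and Htra3 tag 3 (chr5:35652943-35652963) is in the coding sequence at site 5 of 10 from the 3′ end. Thbs4 tag 1 (chr13:92751646-92751666, minus strand) is in the 3′ UTR and Thbs4 tag 3 (chr13:92755147-92755167) in the coding sequence. Six2 tag 1 is in the 3′ UTR at chr17:85684319-85684339 (minus strand). Six2 tag 2 matches the Six2 coding sequence at chr17:85685196-85685216 apart from G3T, with the reference base first and positions counted from the first base after CATG. Htra3 tag 2 matches the 3′ UTR at chr5:35652316-35652336, where the reference differs from the NlaIII site by G2A, counted from the C of CATG.

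The tag totals were 5325279 and 5015295 in hindlimb replicates 1 and 2, and 4695786 and 1829647 in forelimb replicates 1 and 2. A single count was worth 0.222 and 0.252 CPM (edgeR's counts scaled by library size, with TMM factors) in the hindlimb libraries and 0.255 and 0.618 CPM in the forelimb libraries, so low genes were measured least finely in forelimb replicate 2. The limb labels were checked with genes that set limb type. Pitx1, a hindlimb factor, had 1137 and 1201 counts in hindlimb and 13 and 2 in forelimb, Tbx4, also of hindlimb, had 193 and 227 in hindlimb and 34 and 5 in forelimb, and Tbx5, of forelimb, had 4 and 6 in hindlimb and 72 and 24 in forelimb.

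Of the regulators, Scx rose in hindlimb and no other passed the test. Scx (ENSMUSG00000034161, chr15:76457452-76459458, plus strand) had 308 and 414 counts in hindlimb and 63 and 13 counts in forelimb. Scaled by library size this was 68.5 and 104 CPM in hindlimb, against 16.0 and 8.03 CPM in forelimb. Both hindlimb libraries stood above both forelimb libraries, and the mean was 86.4 ± 25.4 CPM in hindlimb and 12.0 ± 5.67 CPM in forelimb (SD, n = 2 each). The log2 fold change, hindlimb over forelimb, was 2.77 ± 0.42 (SE), with an adjusted p of 6.8e-04 by edgeR's quasi-likelihood test with Benjamini-Hochberg adjustment over all genes tested. In the same test 16.7% of all genes were called at an adjusted p under 0.05, 9.58% higher and 7.08% lower in hindlimb, so 1 of 4 regulators called higher is a small count against a common event. Scx overlaps Bop1, which lies on the opposite strand and had 108 and 54 counts in hindlimb and 50 and 34 in forelimb. None of the Scx counts was in a tag that also matched another gene.

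Mkx (ENSMUSG00000061013, chr18:6934518-7004780, minus strand), which promotes collagen production in differentiating tendon, had 41.1 and 47.6 CPM in hindlimb and 71.1 and 71.1 CPM in forelimb. The hindlimb libraries were both lower, but the log2 fold change of -0.68 ± 0.34 (SE) was not called (adjusted p = 0.172). Its 95% interval ran from -1.39 to 0.029. Most Mkx counts, 646 of 768, came from a single tag in the 3′ UTR at site 4 of 20 from the 3′ end. Mkx overlaps the annotated gene AC148004.2 on the same strand.

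Six2 (ENSMUSG00000024134, chr17:85684277-85688274, minus strand), a homeobox factor best known for kidney progenitors and also present in limb tendon and connective tissue, had 42.7 and 65.0 CPM in hindlimb and 36.9 and 49.4 CPM in forelimb. The limb types overlapped, and at 0.33 ± 0.37 (SE) the log2 fold change was smaller than its error (adjusted p = 0.575). Of the 675 Six2 counts, 88 were in a tag that matches only the antisense strand of the transcript, though the deposited table gives it to Six2.

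Egr2 (ENSMUSG00000037868, chr10:67535475-67542188, plus strand) was the sparsest of the 8 genes, with 7 and 7 counts in hindlimb and 10 and 7 counts in forelimb. In CPM it had 1.56 and 1.76 in hindlimb and 2.55 and 4.33 in forelimb. The limb types did not overlap, but with 31 counts in all the log2 fold change of -0.99 had an SE of 1.09 (adjusted p = 0.572) and an interval from -3.29 to 1.31. That interval covers changes of either sign. Egr2 is also a factor of myelinating Schwann cells, and 11 Schwann cell markers summed to 78.0 and 82.2 CPM in hindlimb and 85.8 and 104 CPM in forelimb. None of their 9 tested genes was called, their median log2 fold change was 0.096, and their part in the Egr2 counts was not tested.

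Of the markers, Tnmd fell in hindlimb and the other 3 did not pass. Tnmd (ENSMUSG00000031250, chrX:133850980-133865577, plus strand) had 354 and 96 counts in hindlimb and 456 and 218 counts in forelimb. This was 78.7 and 24.2 CPM in hindlimb and 116 and 135 CPM in forelimb, a mean of 51.5 ± 38.5 CPM in hindlimb and 125 ± 13.1 CPM in forelimb (SD, n = 2 each). The limb types did not overlap, and the spread was wide within hindlimb, where replicate 2 stood far below replicate 1. On the log2 scale hindlimb over forelimb was -1.28 ± 0.42 (SE), with an adjusted p of 0.0461 by edgeR. Without hindlimb replicate 2 it was -0.65 (adjusted p = 0.321), and without hindlimb replicate 1 it was -2.38 (adjusted p = 1.0e-06). The call was also lost without forelimb replicate 1 (-1.38, adjusted p = 0.105), without forelimb replicate 2 (-1.17, adjusted p = 0.163) and with library totals alone in place of TMM (-1.28, adjusted p = 0.0566). Over 19 skeletal muscle markers the sum was also lower in hindlimb, at 3214 and 3328 CPM, against 8368 and 7249 CPM in forelimb. Actc1 alone gave 1358 and 1107 CPM of this sum in hindlimb and 4001 and 3146 CPM in forelimb. Of the 17 tested muscle markers 14 were below 0, and Myod1 (0.80), Des (0.55) and Tnni1 (0.25) were above 0. The part of muscle in the Tnmd result was not tested.

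Thbs4 (ENSMUSG00000021702, chr13:92751590-92794818, minus strand), a secreted thrombospondin that organises tendon matrix, had 79.4 and 69.6 CPM in hindlimb and 104 and 92.7 CPM in forelimb. Both hindlimb libraries were lower, but the log2 fold change of -0.40 ± 0.32 (SE) did not pass (adjusted p = 0.412). Chodl (ENSMUSG00000022860, chr16:78930948-78951733, plus strand), a C-type lectin domain membrane protein, had 51.6 and 27.5 CPM in hindlimb and 29.0 and 55.6 CPM in forelimb. Each limb type held a high and a low library, and the log2 fold change was -0.070 ± 0.42 (SE; adjusted p = 0.931, 95% interval -0.94 to 0.80). Both signs lie within that interval too. Htra3 (ENSMUSG00000029096, chr5:35652023-35679782, minus strand), a secreted serine protease of the HtrA family, had 82.0 and 124 CPM in hindlimb and 62.6 and 85.9 CPM in forelimb. The limb types overlapped by a narrow margin, and the log2 fold change was 0.48 ± 0.34 (SE; adjusted p = 0.347).

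**Figure D1:**
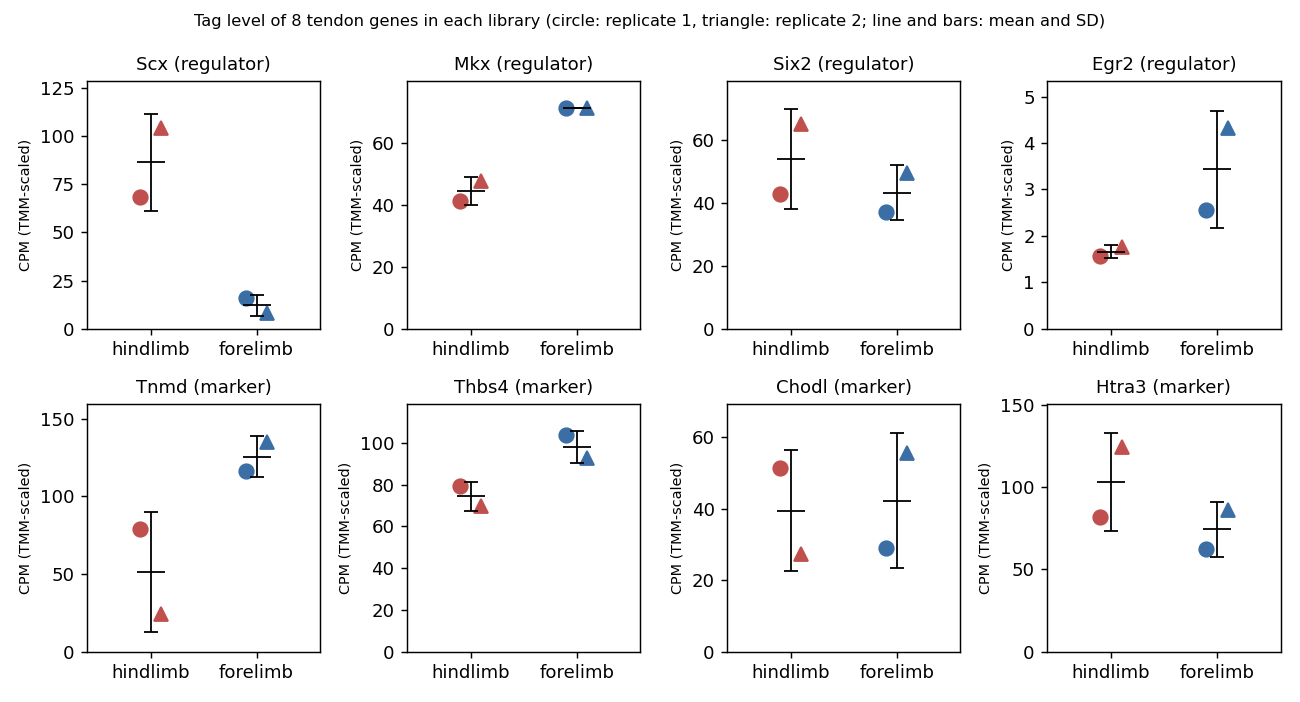
Level of each of the 8 genes in CPM (TMM-scaled), with 1 panel per gene and hindlimb left of forelimb. Circles are replicate 1, triangles replicate 2, and the line with bars is the mean and SD of 2 libraries. Scx has both hindlimb libraries (68.5 and 104 CPM) above both forelimb libraries, Mkx, Egr2, Tnmd and Thbs4 have both below, and Six2, Chodl and Htra3 overlap.

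Set side by side, regulators and markers each had 1 called gene, of opposite sign. The median log2 fold change was -0.17 over the 4 regulators and -0.24 over the 4 markers, against -0.029 over all genes tested. In 5 of the 8 genes the limb types did not overlap, 1 higher and 4 lower in hindlimb. Among all genes 62.8% did not overlap, 31.4% higher and 31.4% lower. Within a library the genes can be set against each other as a ratio of counts. Per 100 Tnmd counts there were 87.0 and 431 Scx counts in the hindlimb libraries and 13.8 and 5.96 in the forelimb libraries. Per 100 marker counts there were 52.7 and 89.1 regulator counts in hindlimb and 40.6 and 36.0 in forelimb. Without Scx this ratio was 29.3 and 46.6 in hindlimb and 35.5 and 33.8 in forelimb, which overlap. The higher regulator share of the hindlimb libraries thus rested on Scx, which gave 44.5% and 47.7% of the regulator counts in hindlimb and 12.7% and 6.05% in forelimb. These ratios were not tested and are given as descriptions. They use the counts as deposited and are not adjusted for the base composition of the tags, which is described next.

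The base composition of a tag moved with its change between limb types across the whole table. Over all tested tags, those with 13 or more G or C among the 17 bases had a median log2 fold change of 2.93, and those with 4 or fewer had a median of -1.13. Scx tag 1 has 11 G or C bases and Tnmd tag 1 has 4. The ratio of Scx to Tnmd counts given above therefore sets tags of unlike composition against each other. An offset was therefore set beside the counts as deposited. It predicts a tag's deviation in each library from its bases. Only contrasts within a gene, of its tags with each other, enter the fit, and the level of the gene itself does not. It was fitted on 42831 tags of 9913 genes, the tags of the 8 genes among them.

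With this tag-sequence offset none of the 8 genes was called. Scx was at 0.66 ± 0.32 (SE; adjusted p = 0.560) and Tnmd at -1.03 ± 0.28 (SE; adjusted p = 0.201). The unadjusted p of edgeR's quasi-likelihood test for Scx was 3.4e-06 as deposited and 0.055 with the offset. For Tnmd the unadjusted p was 0.0074 as deposited and 0.0019 with the offset, so only its adjusted p was larger with the offset. Over the 16 alternatives run, the adjusted p of Scx ranged from 1.1e-10 to 0.696 and that of Tnmd from 1.0e-06 to 0.372. Among all genes 0.19% were called with the offset, 0.0875% higher and 0.102% lower in hindlimb, and Pitx1, Tbx4 and Tbx5 were among them at 3.48, 2.85 and -3.93. At an unadjusted p under 0.05 there were 2 of the 8 genes with the counts as deposited, against 32.4% of all genes. With the offset there were 3 of the 8, Six2 (0.66 ± 0.30 SE), Tnmd and Thbs4 (-0.59 ± 0.24 SE), against 9.10% of all genes. Mkx stood at -0.11, Egr2 at -0.048, Chodl at 0.16 and Htra3 at -0.40, so that Chodl and Htra3 had the opposite sign to that without it. The median with the offset was 0.30 over the regulators and -0.50 over the markers, against -0.013 over all genes. A simpler offset, built on GC percent alone, called 6.01% of all genes, 2.87% higher and 3.14% lower. With it Scx stayed called (1.32, adjusted p = 0.0314), Tnmd did not (-0.48, adjusted p = 0.372) and Mkx was called lower (-1.03, adjusted p = 0.0357).

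**Figure D2:**
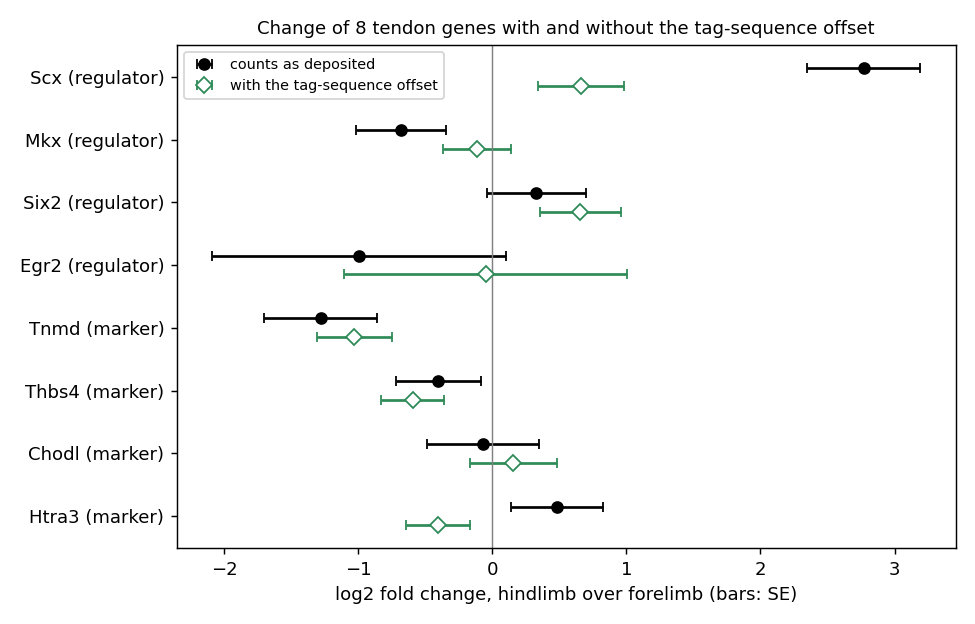
Log2 fold change of each gene, hindlimb over forelimb, with SE bars. Filled circles use the counts as deposited and open diamonds add the tag-sequence offset. Scx is at 2.77 as deposited and at 0.66 with the offset, and Tnmd is at -1.28 and -1.03.

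Single tags show where the counts of a gene lay. The 8 genes had 72 tags with a count, of which 26 passed the filter on low counts. Scx tag 1 and Htra3 tag 1 were called higher in hindlimb by edgeR's quasi-likelihood test over 37805 tags, and no tag was called lower. In the same test 6.24% of all tags were called, 4.59% higher and 1.64% lower. At an unadjusted p under 0.05 there were 7 of the 26 tags, 4 higher and 3 lower, against 28.5% of all tags. The call of Htra3 tag 1 was lost with library totals alone (2.20, adjusted p = 0.0619). It was also lost when hindlimb replicate 2 was left out (1.59, adjusted p = 0.108), as when forelimb replicate 2 was (1.87, adjusted p = 0.108). With the tag-sequence offset none of the 26 was called, against 0.0317% of all tags (0.0238% higher and 0.00794% lower).

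Scx tag 1, printed above, had 258 and 354 counts in hindlimb and 53 and 11 counts in forelimb. It rose by 2.78 ± 0.53 (log2, SE; adjusted p = 0.0250), with no overlap of the limb types. Scx tag 2, at the next site, had 18 and 41 counts in hindlimb and 5 and 0 in forelimb, and changed by 3.09 ± 1.11 (log2, SE), which was not called (adjusted p = 0.107). Tag 1 held 83.8% and 85.5% of the Scx counts in hindlimb and 84.1% and 84.6% in forelimb. Tag 2 held 5.84% and 9.90% in hindlimb and 7.94% and 0% in forelimb, where 0 of 13 counts allows up to 22.8% by the Wilson interval. For tag 1 in forelimb replicate 2, 11 of 13 counts, that 95% interval ran from 57.8% to 95.7%. Such intervals cover counting error only and leave out variation between libraries. Amplified tags carry no molecular identifiers here, which the intervals do not take into account. The tag-sequence model gave a difference of 1.67 for Scx tag 1 and 3.88 for tag 2. With the offset tag 1 was at 0.97 and tag 2 at -0.94, of opposite sign and neither called.

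Of the Htra3 tags, 1 rose and the others were not called. Htra3 tag 1, with 11 G or C bases, had 174 and 366 counts in hindlimb and 66 and 16 counts in forelimb and rose by 2.24 ± 0.56 (log2, SE; adjusted p = 0.0477). Tag 2 had 97 and 60 counts in hindlimb and 62 and 32 in forelimb, a log2 fold change of 0.053 ± 0.50 (SE). Tag 3, in the coding sequence and with 9 G or C bases, had 27 and 19 counts in hindlimb and 60 and 36 in forelimb, at -1.78 ± 0.57 (SE; adjusted p = 0.0821). The sum over the Htra3 tags therefore adds tags that stood on opposite sides of 0. Tag 1 held 47.2% and 74.2% of the Htra3 counts in hindlimb and 26.8% and 11.5% in forelimb. Tag 3 held 7.32% and 3.85% in hindlimb and 24.4% and 25.9% in forelimb. The model gave a difference of 1.75 for tag 1, 1.01 for tag 2 and -0.77 for tag 3. With the offset these tags were at 0.26, -0.99 and -1.12, none called. Htra3 tag 4 was uneven within forelimb, with 18 and 8 counts in hindlimb and 3 and 38 in forelimb.

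No Six2 tag was called. The most counted had 122 and 136 counts in hindlimb and 111 and 60 in forelimb, a log2 fold change of -0.087 ± 0.45 (SE). Six2 tag 2, which carries the G3T difference from the reference, had 34 and 86 counts in hindlimb and 11 and 3 in forelimb, at 2.56 ± 0.76 (SE; adjusted p = 0.0686). Tag 3, the antisense match, was at -0.18 ± 0.66 (SE). With the offset the 3 tags were at 1.01, 0.67 and 0.53, none called. Tag 2 held 17.7% and 33.3% of the Six2 counts in hindlimb and 7.59% and 3.75% in forelimb. The table used here has no row for a Six2 tag with the reference base at that position.

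For Thbs4, tag 1 had 294 and 234 counts in hindlimb and 292 and 106 in forelimb, at -0.18 ± 0.40 (SE). Thbs4 tag 3 was lower in both hindlimb libraries, with 17 and 8 counts in hindlimb and 52 and 24 in forelimb, at -2.25 ± 0.65 (SE; adjusted p = 0.0649). Tnmd tag 1 held 85.1% of the Tnmd counts, had 302 and 74 counts in hindlimb and 394 and 187 in forelimb, and stood at -1.33 ± 0.58 (SE; adjusted p = 0.164). Tnmd tag 3 did not pass the filter on low counts, with 0 and 0 counts in hindlimb and 28 and 1 in forelimb, nearly all in a single library. The tested tags of Chodl ran from -1.95 to 0.47, and none was called. Its most counted tag had 153 and 80 counts in hindlimb and 60 and 52 in forelimb, at 0.22 ± 0.54 (SE).

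**Figure D3:**
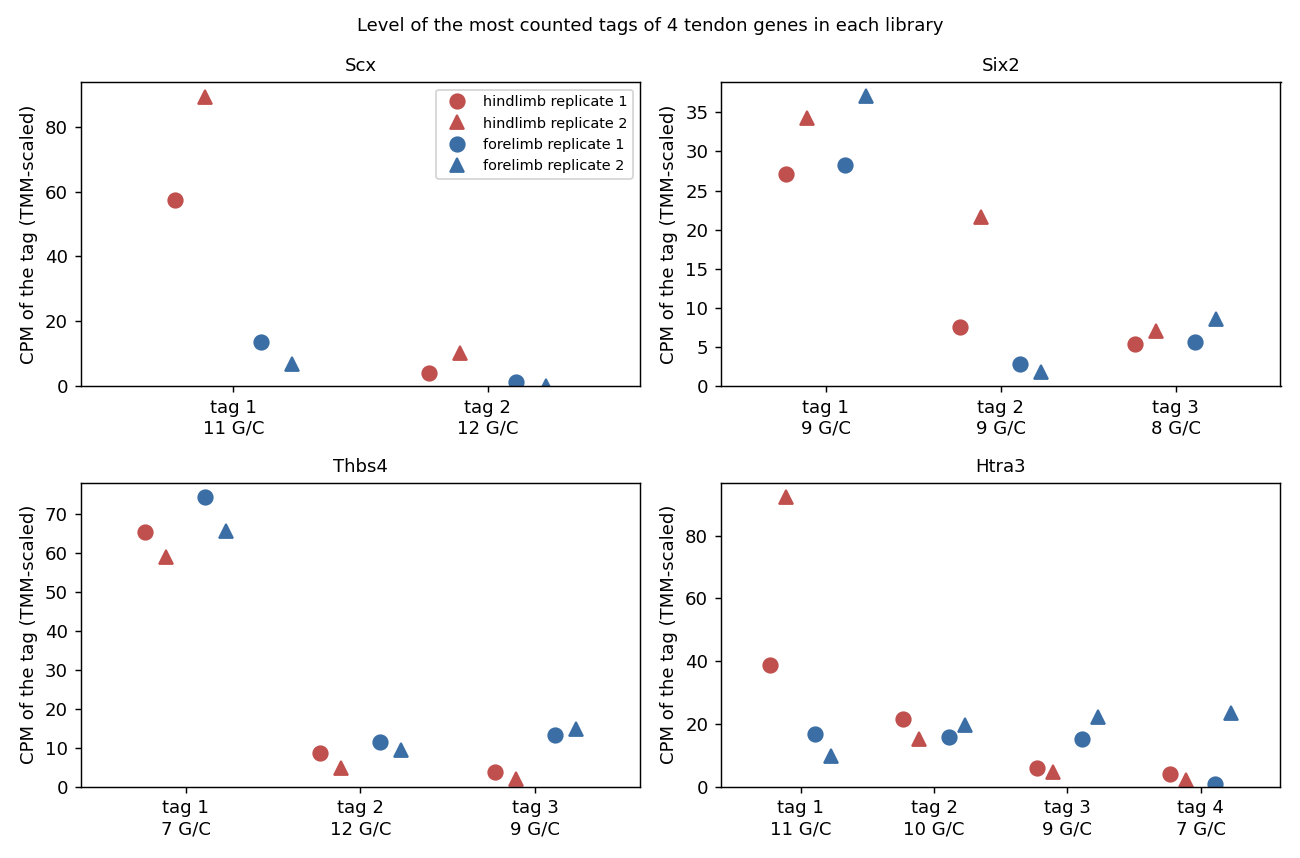
CPM of the most counted tags of Scx, Six2, Thbs4 and Htra3 in each library, with hindlimb in red left of forelimb in blue and the number of G or C bases under each tag. Both Scx tags are higher in hindlimb, and Htra3 tag 1 is higher, while the points of Htra3 tag 3 lie lower in hindlimb.

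A test of tag usage asks whether tags of 1 gene change by different amounts. Of the 7 genes with 2 or more tested tags, none was called by edgeR's diffSpliceDGE, whereas 10.4% of all 8694 genes tested were called. The smallest adjusted p were 0.0992 for Six2, 0.123 for Htra3 and 0.175 for Thbs4, and those 3 had unadjusted p of 0.0180, 0.0272 and 0.0502 in that order. Scx had an adjusted p of 0.999, with its 3 tested tags at 2.78 ± 0.53, 3.09 ± 1.11 and 3.46 ± 1.78 (log2, SE). Scx tags 2 and 3 had few forelimb counts (5 and 0, and 0 and 1), so this does not show equal change. With counts divided by the tag-sequence model and rounded, 0.204% of all genes were called and none of the 6 of the 8 genes that could then be tested, which left out Scx and Egr2.

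Across the 26 tested tags, the observed log2 fold change and the difference given by the model had a Pearson's r of 0.837, and 21 of the 26 had the same sign. Over all tested tags r was 0.801. With the number of G and C bases r was 0.549 over the 26 tags and 0.572 over all. These are descriptions across tags that share libraries and bases, and the model was fitted on these tags among others. Of 13 tested tags with 9 or more G or C bases 8 were above 0, and of 13 with fewer 4 were above 0.

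**Figure D4:**
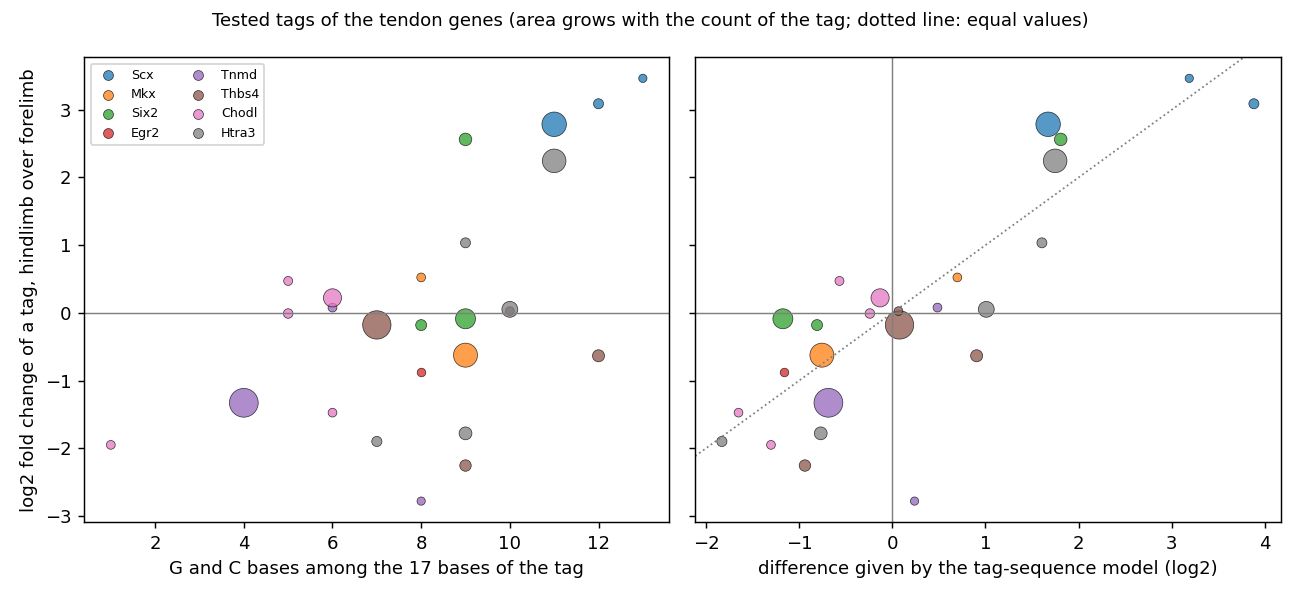
The 26 tested tags by gene, with log2 fold change (hindlimb over forelimb) against the number of G and C bases at the left and against the difference given by the tag-sequence model (log2) at the right. The area of a point grows with its count and the dotted line marks equal values. Tags of Scx lie at the upper right of both panels, and Tnmd tag 1 lies at 4 G or C bases and -1.33.

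Other genes of the pathway were taken from lists chosen for their roles. Among signals and receptors that act on tendon progenitors, 1 of 20 tested genes rose and 1 fell, with a median log2 fold change of 0.092. Fgfr1, an FGF receptor, had 343 and 363 CPM in hindlimb and 143 and 146 CPM in forelimb (1.28 ± 0.31 SE, adjusted p = 0.00968). Dusp6, a phosphatase induced by FGF signalling, had 48.0 and 41.1 CPM in hindlimb and 98.3 and 84.7 CPM in forelimb (-1.04 ± 0.33 SE, adjusted p = 0.0399). The TGF-beta ligand, receptor and Smad genes tested did not pass. With the tag-sequence offset none of the 20 was called, and Fgfr1 was at 0.024 and Dusp6 at -0.53.

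Of 18 tested partners and relatives of the 4 factors, 1 rose and 2 fell, with a median of 0.10. Nab2, a corepressor of Egr factors, had 123 and 234 CPM in hindlimb and 100 and 59.3 CPM in forelimb (1.15 ± 0.37 SE, adjusted p = 0.0409). Egr1, the relative of Egr2, had 51.4 and 52.7 CPM in hindlimb and 104 and 122 CPM in forelimb (-1.11 ± 0.32 SE, adjusted p = 0.0256). Eya2, a transcriptional coactivator, had 16.9 and 6.55 CPM in hindlimb and 35.1 and 35.2 CPM in forelimb (-1.57 ± 0.46 SE, adjusted p = 0.0267). Egr1 is also an immediate early gene, and of 9 tested genes of that kind 1 rose (Junb, 1.68) and 1 fell (Egr1), with a median of -0.14. With the tag-sequence offset no gene of either list was called, and Nab2 was at 0.33, Egr1 at -0.45, Eya2 at -0.43 and Junb at 0.020.

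In the list of tendon and connective tissue matrix 2 of 31 tested genes rose and 8 fell in hindlimb, with a median of -0.18. Aspn, a small leucine-rich protein of connective tissue, had 81.1 and 44.6 CPM in hindlimb and 300 and 370 CPM in forelimb (-2.41 ± 0.36 SE, adjusted p = 6.0e-04). Dcn, which binds collagen fibrils, had 253 and 191 CPM in hindlimb and 713 and 769 CPM in forelimb (-1.74 ± 0.32 SE, adjusted p = 0.00239). Ogn, a further member of this family, had 380 and 330 CPM in hindlimb and 920 and 957 CPM in forelimb (-1.40 ± 0.31 SE, adjusted p = 0.00638). Col6a2, a chain of collagen VI, had 349 and 397 CPM in hindlimb and 127 and 145 CPM in forelimb (1.46 ± 0.31 SE, adjusted p = 0.00516). With the tag-sequence offset none of the 31 was called. Their median was then -0.24, and 25 of the 31 were below 0, against 16 with the counts as deposited. Among all 13718 genes tested, 6706 were above 0 with the offset. Aspn was then at -0.19, Dcn at -0.24, Ogn at 0.22 and Col6a2 at 0.19.

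Markers of other cells of the limb were read beside these. None of 17 tested skeletal muscle markers rose and 9 fell, with a median of -1.09. Under the tag-sequence offset their median was -0.68 and 2 were called lower, Acta1 and Mylpf. Myh8, a myosin heavy chain of the fetus, had 42.0 and 34.3 CPM in hindlimb and 131 and 142 CPM in forelimb (-1.84 ± 0.33 SE, adjusted p = 0.00218). Tnnc2 was at -1.78, Neb at -1.74 and Acta1 at -1.64, all genes of the contractile apparatus. Of 12 tested cartilage markers 3 rose and 2 fell, with a median of -0.093. Among them Col2a1 was at 1.46, Col9a2 at 1.75, Matn1 at -1.26 and Epyc at -1.60, and the list summed to 6350 and 8005 CPM in hindlimb and 6680 and 5704 CPM in forelimb. With the offset none of the 12 was called, and Col2a1 was at 0.17, Col9a2 at -0.41, Matn1 at -0.26 and Epyc at -0.79. Of 7 tested macrophage markers 1 fell (C1qa, -1.75, and -0.97 with the offset, not called), with a median of -0.028, and the list, with Cd14 at 0 in all libraries, summed to 75.6 and 66.8 CPM in hindlimb and 83.8 and 98.9 CPM in forelimb. The Schwann cell genes with the most counts, Fabp7 (-1.20, adjusted p = 0.0566) and S100b (-0.24, adjusted p = 0.780), did not pass. The part of these cell types in the results of the 8 genes was not tested.

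**Figure D5:**
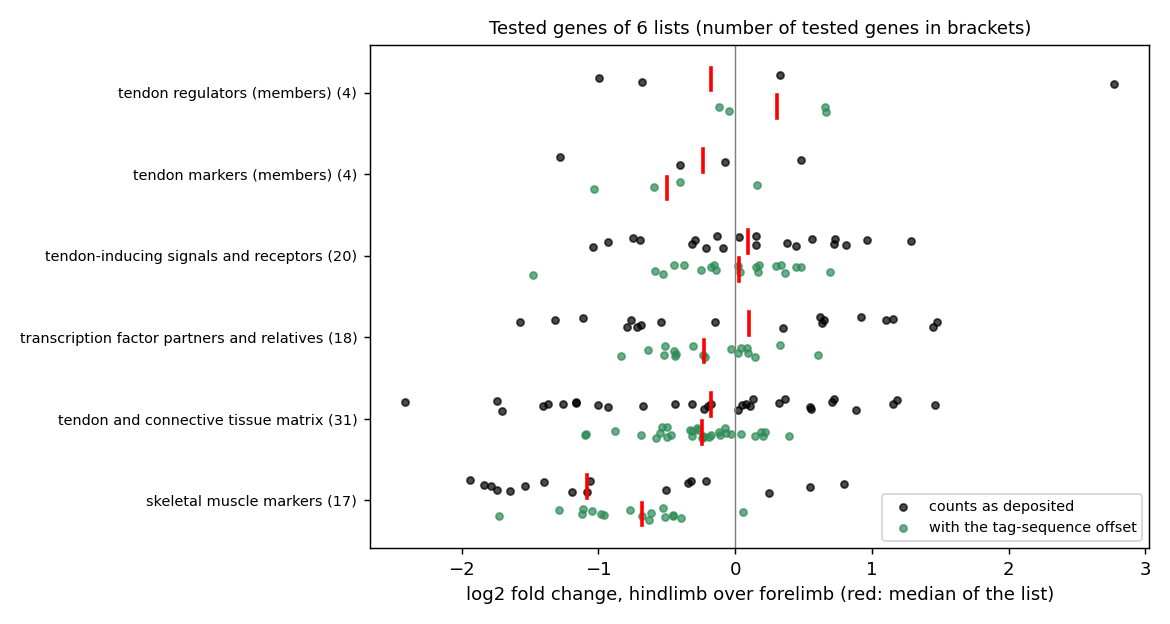
Log2 fold change (hindlimb over forelimb) of the tested genes of 6 lists, with 1 point per gene. Black uses the counts as deposited, green adds the tag-sequence offset, and the red mark is the median. Muscle markers have a median of -1.09 and -0.68, and Scx is the black point at 2.77.

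The genes nearest to Scx in level over the 4 libraries were Irx5, Twf2 and Hoxa11os, by the root mean square difference of log2 CPM. The differences were 0.19, 0.25 and 0.26. Irx5, a homeobox factor, had 62.7 and 101 CPM in hindlimb and 20.4 and 8.65 CPM in forelimb. Twf2, an actin-binding protein, had 56.7 and 96.3 CPM in hindlimb and 21.1 and 8.65 CPM in forelimb. Hoxa11os, an antisense transcript of the Hoxa11 locus matched by its Ensembl identifier, had 55.8 and 94.8 CPM in hindlimb and 13.2 and 9.89 CPM in forelimb. The 3 genes were picked for nearness to Scx in these same libraries, so their likeness to it with the counts as deposited is no separate result. With the tag-sequence offset they stood at 0.25, 0.16 and 1.04, none of them called.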

How the data were processed

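The authors deposited 1 table of raw tag counts for 733961 tags of 17 bases, with an Ensembl gene or UniGene cluster where assigned. Per the labels' protocols, libraries were DGE tag profiles made with NlaIII from total RNA. Per the submitters' processing notes, Bowtie and mm9 were used, in versions not stated there. Counts were summed per Ensembl gene, or per cluster where no gene was given. Tags with neither were left out, which removed 14.8% to 18.7% of the counts. Matching to GENCODE M21 gave the deposited gene for 98.0% of the counts in tags of 1 gene.

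Limb types were compared with edgeR 4.0.16 under R 4.3.3 (glmQLFit, glmQLFTest, TMM, filterByExpr, Benjamini-Hochberg at 0.05, no block; SE is the log2 fold change over the root of F). The design leaves 2 residual degrees of freedom, 18.0 after moderation. Tags were tested alike, and tag usage by diffSpliceDGE (Simes). The tag-sequence offset models base and position, first dinucleotide, GC and purine number per library, on tags with 20 or more counts. The GC offset is a lowess (span 0.3). DESeq2 1.42.0, other tag choices, thinning, a replicate block and leaving out each library were alternatives. Tests were also run on simulated counts. The sequence effect simulated there was the model's own prediction, so its recovery cannot show that the offset is right for these data.

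The 8 genes and all lists were chosen with earlier results of these data known. The lists were tendon-inducing signals and receptors, transcription factor partners and relatives, tendon and connective tissue matrix, skeletal muscle, cartilage, Schwann cell and macrophage markers, and immediate early genes. Named were all 8 genes, their tags to 90% of counts (at most 4), up to 4 called genes of a list with the smallest p or else its 2 most abundant, and the 3 genes nearest to Scx. Pitx1, Tbx4, Tbx5, Bop1, Mylpf, Myod1, Des, Tnni1, Actc1 and Cd14 were named outside this rule after their values were seen.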

Additional observations from a re-analysis of the deposited data

Results flagged for a closer look

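Tags to which the deposited table gives no gene, but which match a GENCODE M21 transcript of 1 of the 8 genes on its own strand, lay outside the sums above and held counts above the 3 that a count of 0 allows. For Mkx there were 261 counts in 7 such tags, 81 and 46 in hindlimb and 98 and 36 in forelimb. For Six2 there were 68 counts in 2 tags, 22 and 35 in hindlimb and 7 and 4 in forelimb. For Thbs4 there were 55 counts in 3 tags, 4 and 27 in hindlimb and 22 and 2 in forelimb. For Htra3 there were 8 counts in 1 tag, 5 and 3 in hindlimb and 0 and 0 in forelimb. With these tags added, the log2 ratio of mean CPM, hindlimb over forelimb, was -0.68 for Mkx, 0.42 for Six2, -0.38 for Thbs4 and 0.49 for Htra3.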

How the results depend on the processing

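Scx was higher in hindlimb under all 16 alternatives (0.66 to 3.42) and called in 14; the exceptions were the tag-sequence offset (0.66) and the replicate block with that offset (0.72). Tnmd was lower under all 16 (-2.38 to -0.48) and called in 8. Thbs4 and Egr2 were below 0 and not called in each alternative that tested them. Genes called higher numbered 1, but 0 with the tag-sequence offset, alone or with the replicate block, and 2 with only the most abundant tag, where Htra3 joined Scx at 2.18 (adjusted p = 0.0089). Genes called lower numbered 1, but 0 with library totals alone, with that offset, alone or with the replicate block, and with the most abundant tag, and 0 to 1 when a library was left out; with the GC offset Mkx was called in place of Tnmd. Tags called higher numbered 2, but 1 with library totals, 0 with the replicate block (adjusted p = 0.0585 for Scx tag 1 and 0.110 for Htra3 tag 1), 0 with the offset, alone or with the block, and 1 to 4 when a library was left out (4 without hindlimb replicate 1, 1 without replicate 2 of either limb type). Tags called lower numbered 0, but 2 without the filter, 2 when thinned to the smallest library, and 0 to 8 when a library was left out (8 without hindlimb replicate 1, 2 and 1 without forelimb replicates 1 and 2). Genes with differing tag usage numbered 0, and 0 to 1 when a library was left out (1 without hindlimb replicate 1). The causes were not tested.

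Signs turned for genes that were not called. Mkx was at 0.41 with only tags at the last NlaIII site of any annotated transcript, which left its tag 2 with 34 counts (site 13 of 20 in the longest coding transcript); a last-site tag of 151 counts has no deposited gene and was not in the sum. Six2 was at -0.11 with the GC offset, -0.18 with the most abundant tag and -0.23 with the last site. Htra3 was at -0.49 with the GC offset, -0.40 with the tag-sequence offset and -0.40 with the replicate block and that offset. Chodl was at 0.56 with the GC offset, 0.16 with the tag-sequence offset, 0.21 with the replicate block and that offset, 0.12 with the most abundant tag, 0.063 with the last site, 0.027 when thinned, and from -0.60 to 0.44 when a library was left out.

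Replicate differences of the limb types had r = -0.105 over 13718 genes. With a single difference per limb type, this cannot show whether libraries that share a number share animals. With the replicate block 2148 genes were called in all, and with the crossed pairing, chosen after seeing the data, 3170, against 2285; both left 1 of the 8 genes called higher and 1 lower. Leaving out hindlimb replicate 1 raised the calls to 3900, and leaving out any other library lowered them to between 950 and 1034. At 0.618 CPM a count, forelimb replicate 2 gives the coarsest values for Egr2 and the rarer tags.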
